A study of Mus musculus with 42 samples.

Results

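The 10 genes described here belong to the histone acetylation machinery and were followed in the RNA sequencing (RNA-seq) table of mouse cleavage embryos: the acetyltransferases Kat6a, Kat8 and Hat1, the coactivators Ncoa2 and Ncoa3, the acetyl-lysine readers Brd3, Brd7, Brdt and Mllt3, and Acss2, an enzyme that makes acetyl-CoA from acetate. They were chosen by name with earlier results of these data known, and all 10 are among the 15737 genes that the table lists once. All embryos came from superovulated ICR females mated to ICR males, were labelled wild type, and were cultured in KSOM medium, with 3 pooled embryos and 2 replicates per group. The early 2-cell group was untreated and collected 34 h after hCG, the late 2-cell groups at 48 h and the 4-cell groups at 58 h. At the late 2-cell stage the groups were control, FK866, FK866 with NMN, TSA and Sirt1 knockdown. At the 4-cell stage they were control, FK866 and FK866 with NMN. FK866 (0.01 µM) inhibits Nampt, the rate-limiting enzyme of the NAD+ salvage pathway, and was given from the zygote. NMN (10 µM) is the product of Nampt and restores NAD+ synthesis downstream of the block. TSA (10 nM) inhibits class I and II histone deacetylases and was given from the early 2-cell stage. The Sirt1 knockdown was made by injecting zygotes with siRNA and with a SIRT1 antibody plus Trim21 mRNA, which degrades the bound protein, and the negative control of that injection was scrambled siRNA with Trim21 mRNA. The table holds a single late 2-cell control column, with which all late 2-cell groups were compared.

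Histone acetyltransferases move the acetyl group of acetyl-CoA onto lysines of the histone tails, sirtuins and the other deacetylases remove it, and bromodomain or YEATS domain proteins bind the acetylated lysine and bring in transcription factors. In the mouse, the oocyte supplies the first transcripts of this machinery, and the embryo begins its own transcription in a minor wave that starts in the zygote and a major wave in the late 2-cell embryo. The comparisons bear on whether the genes that write, read and supply this mark changed with stage, with NAD+ depletion or with a block of deacetylation.

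Each column of the table carries the summed FPKM of its libraries (fragments scaled to transcript length and library total), and the values could be divided back into whole reads of single libraries. Below, A is the larger and B the smaller library of a column. Only 1 library each was seen in 4-cell-FK866 and 4-cell-FK866-NMN, named by header. Thus 16 libraries were read in 9 columns, with totals of 3169677 to 10003481 reads. The reads separated for genes of the table made up 45.9% to 62.8% of these totals. The table holds 46.0% of the protein-coding gene names, so shares of all genes refer to the genes in it. The study calls the replicates of a group biological, and the labels do not say whether they came from separate cultures, so p-values measure only the spread between these libraries. Levels are FPKM per library, which are relative to the library total, so that a change in 1 transcript and an opposite change in total RNA per embryo cannot be told apart. In the column headed late-2-cell-FK866-NMN the libraries differed. Library A had 41.4% of the tested genes at 0 and a median log2 level of 0.60, against 12.3% to 33.0% and 1.77 to 2.88 in the other libraries outside this column, and calls of members that change without it are given with and without it.

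The headers and the supplementary tables of the study did not name the same columns. All 84 control values of the 4-cell table were those of the column headed late-2-cell-TSA, all 84 FK866 values were those headed late-2-cell-Sirt1 and all 84 NMN values were those headed 4-cell-con. Of the 1203 genes listed for TSA in the part of that list held here, 1203 had the listed direction in the column headed 4-cell-FK866 and 546 in the column headed late-2-cell-TSA. Of 821 listed for Sirt1 knockdown, 773 had it in the column headed 4-cell-FK866-NMN and 442 in the column headed late-2-cell-Sirt1. Columns of neither name often had the listed direction too. It was found in early 2-cell for 1096 TSA and 684 Sirt1 genes, and in late 2-cell FK866 for 986 and 703. For TSA and Sirt1 the match was thus of direction only, not of values. The late 2-cell values for control, FK866 and FK866 with NMN matched their own headers for 117 or 118 of 118 genes. The columns are therefore called TSA-headed, Sirt1-headed, 4-cell-con-headed, 4-cell-FK866-headed and 4-cell-FK866-NMN-headed. Comparisons are named under the headers and under the tables, where each reading makes a planned comparison of the pair. By the tables these columns are, in the same order, 4-cell control, 4-cell FK866, 4-cell FK866 with NMN, late 2-cell TSA and late 2-cell Sirt1 knockdown. Sirt1 itself stood at 32.4 and 73.1 FPKM in the Sirt1-headed libraries, 86.6 and 66.2 in the late 2-cell control libraries, 7.61 in the 4-cell-FK866-headed library and 11.3 in the 4-cell-FK866-NMN-headed library. In the Sirt1-headed column library B lay between the control libraries and library A lay below them. The summed level of 6 Zscan4 genes, which mark the 2-cell stage, was 403.3 FPKM in the late 2-cell control, 9.39 in the TSA-headed, 28.3 in the Sirt1-headed, 34.7 in the 4-cell-con-headed, 91.0 in the 4-cell-FK866-headed and 219.3 in the 4-cell-FK866-NMN-headed column. Of 11 genes of cumulus, granulosa and blood cells, 7 were in the table, and they summed to between 0.126 and 9.22 FPKM in a column. The highest sum was that of the 4-cell-FK866-headed library, where Cyp19a1 stood at 8.12 FPKM. Tnfaip6 reached 2.67 in late 2-cell control, while Ptx3 and Foxl2 were at 0 in 8 of 9 columns.

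Promoter sequences were in the RefSeq set (GRCm38.p6) for 7 members and not for Kat6a, Ncoa2 and Ncoa3. The stretches before the start of Brdt and Mllt3 are shown because these readers were, with Ncoa2, called different in the most comparisons, and that of Kat8 as an example of a member that was called in no comparison with all libraries. They run 5′ to 3′ on the strand of the gene, at chr5:107330944-107331158 (plus strand), chr4:88033408-88033657 (minus strand) and chr7:127912267-127912515 (plus strand). Capitals mark CCAAT or its reverse complement ATTGG, the motif of the NF-Y factor.

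Brdt: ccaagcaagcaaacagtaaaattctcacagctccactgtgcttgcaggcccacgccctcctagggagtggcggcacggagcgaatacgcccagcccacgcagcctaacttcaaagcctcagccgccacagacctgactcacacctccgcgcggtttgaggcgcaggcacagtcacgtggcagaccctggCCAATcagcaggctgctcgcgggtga

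Mllt3: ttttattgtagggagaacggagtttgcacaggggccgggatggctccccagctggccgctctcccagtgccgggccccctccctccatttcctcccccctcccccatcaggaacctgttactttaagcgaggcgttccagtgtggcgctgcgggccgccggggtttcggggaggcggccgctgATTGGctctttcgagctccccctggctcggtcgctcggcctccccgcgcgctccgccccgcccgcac

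Kat8: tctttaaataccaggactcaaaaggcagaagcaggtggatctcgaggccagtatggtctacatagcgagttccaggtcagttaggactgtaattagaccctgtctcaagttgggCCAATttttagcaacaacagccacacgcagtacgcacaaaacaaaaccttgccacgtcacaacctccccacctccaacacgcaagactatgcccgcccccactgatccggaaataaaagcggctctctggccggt

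All 3 stretches held CCAAT on 1 strand or the other. Over the 9 windows of these 7 members the motif was in 6, and over the first 250 bases of all 32851 promoter windows it was in 33.8%. GGGCGG, the GC box, with its reverse complement was in 7 of the 9 windows and in 32.7% of all windows. TAATCC, the motif of Otx and Obox homeodomains, was in 0 of the 9 and in 6.25% of all. Some of the member windows were shorter than 250 bases, since they were cut at the annotated start of the gene.

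Among the coactivators, Ncoa2 had the widest contrast between columns. Ncoa2, a p160 coactivator that joins nuclear receptors to acetyltransferases such as Ep300, is at chr1:13139105-13374083 on the minus strand (mm10, GENCODE M21, as are all gene positions below). It stood at 5.34 and 6.44 FPKM in the early 2-cell libraries, 10.5 and 18.0 in late 2-cell control, 17.2 and 31.1 with FK866, and 25.8 and 29.0 with FK866 and NMN. In the TSA-headed column it had 0 reads in library A and 1 read in library B, in the Sirt1-headed column 0 and 23 reads, and in the 4-cell-con-headed column 43 and 0 reads. A count of 0 allows up to 0.0280, 0.0192 and 0.0413 FPKM in those 3 libraries, for counting error only. It was 21.0 in the 4-cell-FK866-headed and 23.3 in the 4-cell-FK866-NMN-headed library. The libraries thus fell into 10 with at least 5.34 FPKM and 6 with at most 0.502, with nothing between. Ncoa3, its paralogue at chr2:165992636-166073242 (plus strand), had no such gap. Its libraries lay between 16.9 and 59.4 FPKM, and the highest were the 4 of the FK866 columns at the late 2-cell stage, at 55.3 and 57.3 with FK866 and 56.2 and 59.4 with FK866 and NMN. The late 2-cell control libraries were at 32.8 and 29.0 and the early 2-cell libraries at 26.8 and 21.5. In the TSA-headed column Ncoa3 stood at 23.6 and 17.1, in the Sirt1-headed at 19.7 and 20.9, in the 4-cell-con-headed at 16.9 and 30.1, in the 4-cell-FK866-headed at 22.3 and in the 4-cell-FK866-NMN-headed at 32.2. Apart from the FK866 columns of the late 2-cell stage, its levels in columns next to each other in order overlapped, except late 2-cell control against early 2-cell.

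The readers Mllt3 and Brdt split the columns in the same places as Ncoa2. Mllt3 (AF9), at chr4:87769925-88033364 on the minus strand, binds acetylated and crotonylated histone H3 through its YEATS domain and links it to the super elongation complex and to Dot1l. It had 87.9 FPKM per library in the early 2-cell column, which could not be divided between libraries for this gene. It stood at 23.7 and 28.6 in late 2-cell control, 31.4 and 35.2 with FK866, and 37.7 and 41.3 with FK866 and NMN. In the TSA-headed column it was 1.07 and 0.0255, in the Sirt1-headed 1.84 and 1.13, and in the 4-cell-con-headed 1.10 and 0.987. The 4-cell-FK866-headed library had 61.6 and the 4-cell-FK866-NMN-headed library 39.7. The 6 libraries of these 3 low columns all lay under 2 FPKM and the other libraries with a value above 20.

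Brdt, the BET family bromodomain protein known from the male germ line, lies at chr5:107331159-107387058 on the plus strand. It was the most abundant of the 10 genes, with 98.7% of the genes in the table below its mean over the columns. It stood at 118.3 and 74.4 FPKM in the early 2-cell libraries, 303.6 and 228.0 in late 2-cell control, 310.9 and 251.5 with FK866, and 169.8 and 290.3 with FK866 and NMN. It was 43.8 and 41.2 in the TSA-headed column, 38.1 and 32.6 in the Sirt1-headed and 49.4 and 39.8 in the 4-cell-con-headed column. The highest library was 4-cell-FK866-headed at 438.8, followed by 4-cell-FK866-NMN-headed at 353.6. The early 2-cell libraries lay between the low columns and all others.

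Brd3, a BET protein at chr2:27445579-27507662 on the minus strand that binds acetylated histones and transcription factors, was higher in the columns where Brdt was low. It was highest in the Sirt1-headed column at 22.9 and 31.7 FPKM, the 4-cell-con-headed at 25.1 and 20.4, the TSA-headed at 18.6 and 12.9, and the early 2-cell column at 15.0 and 19.3. It stood at 5.93 and 11.9 in late 2-cell control, 5.60 and 9.89 with FK866, 8.82 and 2.90 with FK866 and NMN, 5.76 in the 4-cell-FK866-headed and 7.52 in the 4-cell-FK866-NMN-headed library. No library of these 5 lower columns reached those of the 4 higher columns, and the 4-cell-FK866-headed library lay below both control libraries. Brd7, a bromodomain subunit of the PBAF chromatin remodeller at chr8:88331039-88362194 on the minus strand, was highest in late 2-cell control at 52.5 and 35.8 FPKM. It was 16.6 and 11 in the early 2-cell libraries, 25.0 and 32.0 with FK866, 2.79 and 42.7 with FK866 and NMN, 5.26 and 10.3 in the TSA-headed, 6.48 and 15.0 in the Sirt1-headed, 15.5 and 13.2 in the 4-cell-con-headed, 21.0 in the 4-cell-FK866-headed and 34.1 in the 4-cell-FK866-NMN-headed column. The lowest value of Brd7 was that of late 2-cell FK866 with NMN library A, while library B of the same column was next to the highest of all 16.

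**Figure D1:**
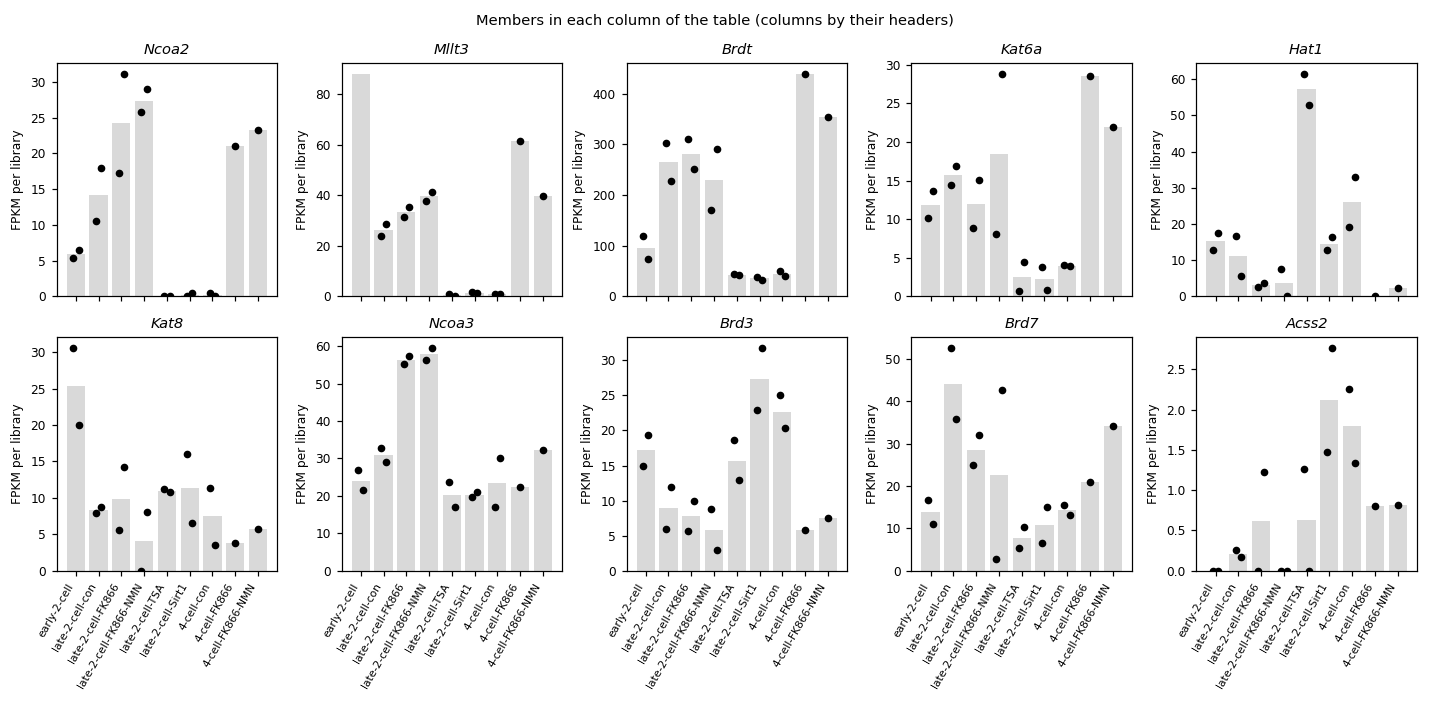
Levels of the 10 members in the 9 columns, named by their headers, on linear axes in FPKM per library that differ between panels. Bars give the column value divided by its number of libraries and points the separated libraries. Ncoa2, Mllt3 and Brdt are low in the 3 columns headed late-2-cell-TSA, late-2-cell-Sirt1 and 4-cell-con, and Mllt3 has no points in the early 2-cell column, where the libraries could not be separated.

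Of the acetyltransferases, Kat6a (MOZ), which acetylates histone H3 in a complex with Brpf1 and lies at chr8:22859535-22943259 on the plus strand, was likewise low in the 3 columns. It stood at 10.1 and 13.6 FPKM in the early 2-cell libraries, 14.4 and 16.9 in late 2-cell control, 8.82 and 15.1 with FK866, and 8.14 and 28.8 with FK866 and NMN. It was 0.641 and 4.42 in the TSA-headed, 3.74 and 0.879 in the Sirt1-headed and 4.01 and 3.95 in the 4-cell-con-headed column, and 28.6 and 22.0 in the 4-cell-FK866-headed and 4-cell-FK866-NMN-headed libraries. The 6 libraries of the low columns lay below all others, though those of the TSA-headed and Sirt1-headed columns differed widely between A and B. Hat1, which acetylates newly made histone H4 before it is placed on DNA and lies at chr2:71388958-71441622 on the plus strand, had the widest span of all members over the columns, 5.86 on the log2(FPKM + 1) scale. It was highest in the TSA-headed column at 61.4 and 53.0 FPKM, followed by the 4-cell-con-headed at 19.1 and 33.1. It was 12.9 and 17.6 in the early 2-cell, 16.7 and 5.66 in late 2-cell control, and 12.8 and 16.3 in the Sirt1-headed libraries. It was 2.51 and 3.79 with FK866, 7.45 and 0 with FK866 and NMN, 2.21 in the 4-cell-FK866-NMN-headed library, and 0 in the 4-cell-FK866-headed library, where 0 reads allow up to 0.222 FPKM. Kat8 (MOF), which acetylates lysine 16 of histone H4 in the MSL and NSL complexes and lies at chr7:127912516-127925837 on the plus strand, was highest in the early 2-cell libraries at 30.5 and 20.0 FPKM. It was 7.90 and 8.80 in late 2-cell control, 5.63 and 14.2 with FK866, 0 and 8.02 with FK866 and NMN, 11.2 and 10.8 in the TSA-headed, 16 and 6.55 in the Sirt1-headed, 11.4 and 3.58 in the 4-cell-con-headed, 3.77 in the 4-cell-FK866-headed and 5.71 in the 4-cell-FK866-NMN-headed column. After the early 2-cell column, each column of Kat8 overlapped the next in order of level.

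Acss2, which turns acetate into acetyl-CoA in the cytosol and nucleus and lies at chr2:155517948-155585724 on the plus strand, was low in all columns, with 2.76 FPKM as its highest library. It had 0 reads in both early 2-cell libraries and in both libraries with FK866 and NMN at the late 2-cell stage, which allows up to 0.0523, 0.0636, 0.0349 and 0.0552 FPKM in turn. It stood at 0.256 and 0.165 in late 2-cell control, 0 and 1.23 with FK866, 1.26 and 0 in the TSA-headed, 1.48 and 2.76 in the Sirt1-headed, 2.26 and 1.34 in the 4-cell-con-headed, 0.798 in the 4-cell-FK866-headed and 0.812 in the 4-cell-FK866-NMN-headed column. Its mean of 0.777 FPKM was below the minimum of 1 for a test, so 9 of the 10 members were tested. Of the 16 libraries 6 had no Acss2 read, and the libraries of most columns overlapped.

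Differences were tested with limma on log2(FPKM per library + 1) over all tested genes, and a gene was called when its Benjamini-Hochberg adjusted p was under 0.05 and its log2 fold change over 1 in size. From early to late 2-cell control, Brdt was the only called member, 1 of the 8 with a value, against 11.1% of all tested genes called higher. Brdt rose by 1.48 on the log2 scale (SE 0.43, limma adjusted p = 0.0420), and its libraries did not overlap. The call was lost without early 2-cell library B (1.15, adjusted p = 0.185), without late 2-cell control library A (1.27, 0.149) and without library B (1.68, 0.0614). Brd7 (1.61, SE 0.95, adjusted p = 0.272) and Ncoa2 (1.10, SE 0.46, adjusted p = 0.129) had higher levels without passing, and Kat8 (-1.46, SE 0.95, adjusted p = 0.321) a lower one. Mllt3 was 0.297 times its early 2-cell level, with no test.

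Several genes around the members were also called in this stage step. Of the genes listed around them, 10 of 24 writers, 28 of 49 complex subunits, 17 of 36 readers, 9 of 16 elongation and Dot1l partners of Mllt3 and 20 of 37 genes of acetyl-CoA supply were in the table. The lists of writers, readers and partners hold members too, with Mllt3 in its own partner list. Their counts and medians thus partly repeat the changes of the members. Of 28 complex subunits tested, 4 were called higher and 0 lower, beside the 11.1% of all tested genes called higher: Dr1, a TATA-binding protein inhibitor that also sits in the ATAC complex, went from 4.81 to 186.9 FPKM, Jade1 from 0.190 to 8.21, the SAGA subunit Taf5l from 6.05 to 32.1, and Brpf1, the partner of Kat6a, from 4.10 to 20.4. Among the genes of acetyl-CoA supply, those called higher included the coenzyme A synthesis enzymes Ppcs (1.27 to 25.8) and Pank3 (6.44 to 59.8), the pyruvate dehydrogenase phosphatase Pdp2 (2.13 to 21.1) and the mitochondrial pyruvate carrier Mpc2 (4.68 to 24.4). Among 10 writers Gtf3c4 rose from 0.282 to 20.2 FPKM, among 14 readers Brdt and Sp140 (4.66 to 19.2) rose, and among 6 elongation partners of Mllt3 the kinase Cdk9 rose from 2.53 to 82.2. The medians of the 5 lists lay between -0.19 and 0.36 on the log2 scale, beside 0.00 over all tested genes.

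With FK866 at the late 2-cell stage none of the 9 members was called, where 0.239% of all tested genes were called in either direction and 749 of 8361 had an unadjusted p under 0.05. None of the members had such an unadjusted p. The largest difference was that of Hat1, from 16.7 and 5.66 to 2.51 and 3.79 FPKM (log2 fold change -1.40, SE 0.87, limma adjusted p = 0.685), whose libraries did not overlap. Ncoa3 was 0.85 higher on the log2 scale (SE 0.41, adjusted p = 0.585), from 32.8 and 29.0 to 55.3 and 57.3 FPKM, also without overlap, and Ncoa2 was 0.71 higher (SE 0.46, adjusted p = 0.693). Brdt differed by 0.09 (SE 0.43) and Kat8 by 0.10 (SE 0.95). Of the 5 lists, 0 genes were called here. Simulated data of this comparison, with 200 genes changed at each of 4-, 16- and 64-fold, gave calls for 28.5%, 74.5% and 92.5% of them. Of 7628 unchanged genes 26 were called. So many changed genes ease the Benjamini-Hochberg adjustment, so these shares can be too high for a comparison with few calls. Each simulated gene began at its mean over all libraries, and genes made to fall were first raised by that fold. The shares can thus also be too high for genes of low level.

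With NMN added to FK866, none of the 9 members was called over FK866 alone (3.35% of all tested genes called in either direction) and none over control (6.54%). An unadjusted p under 0.05 was found for 0 members in either comparison. Leaving out library A of the FK866 with NMN column changed the outcome over control, and not that over FK866 alone. Without it, Hat1 was called lower than control, as 0 against 16.7 and 5.66 FPKM (log2 fold change -3.44, adjusted p = 0.0158), and no member was called over FK866 alone. Without library B instead, the calls changed in both comparisons, and library A alone stood for the column. Brd7 and Kat8 then differed from FK866 alone by -2.95 and -3.33, and from control by -3.55 and -3.22. With either library left out, 1 library stood for the column and more genes were called over all genes too. The changes of calls were thus not particular to these members. Library A had 41.4% of the tested genes at 0, Kat8 among them. With both libraries Brd7 differed from FK866 alone by -1.19 (SE 0.95), and without library A by 0.58. Ncoa3 was 0.04 above FK866 alone on the log2 scale (SE 0.41) and 0.89 above control (SE 0.41, adjusted p = 0.248). Ncoa2 was 0.94 above control (SE 0.46, adjusted p = 0.270) with no overlap. Without library A these differences from control were 0.93 for Ncoa3 (adjusted p = 0.246) and 1.02 for Ncoa2 (adjusted p = 0.283). Of 17 genes of acetyl-CoA supply, 1 was called over FK866 alone, the thioesterase Acot7, lower at 0.0278 against 9.95 FPKM. Against control 3 were called, with Acot7 (0.0278 against 20.1) and Ppcs (0 against 25.8) lower and the phosphatase Pdp1 (26.2 against 1.47) higher. Without library A, Acot7, Mpc2 and Pdp2 were called in this list over FK866 alone. Over control Acot7 and Ppcs were still called, the call of Pdp1 was lost, and Acaa1a, Mpc2 and Pdp2 were added. Without this library the complex subunit Sgf29 was also called higher and Ccnt2, a partner of Cdk9, lower than FK866 alone. Nat10, an acetyltransferase of RNA, was lower than control at 0.0342 against 6.69 FPKM, with and without library A.

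**Figure D2:**
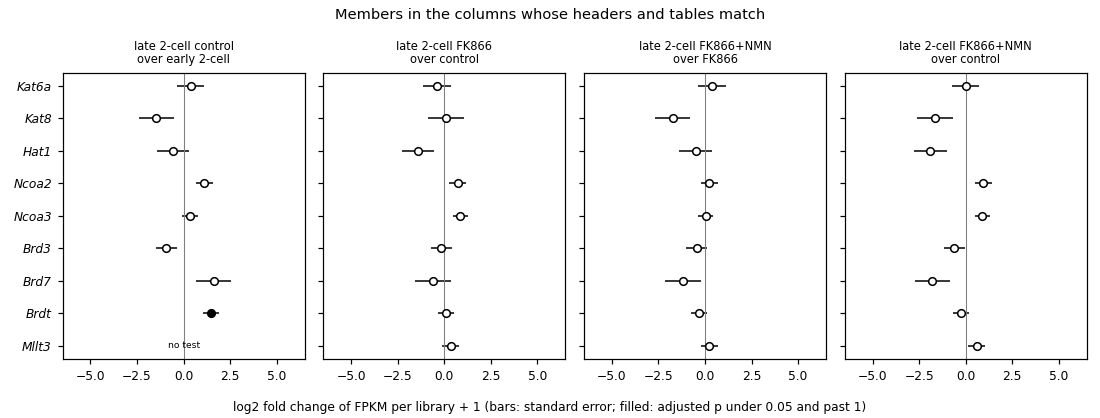
Log2 fold changes of FPKM per library + 1 of the 9 tested members in the column pairs that carry the same names under headers and tables. Points are limma estimates, bars 1 standard error, and filled points passed adjusted p under 0.05 with a change over 1. Only Brdt from early to late 2-cell, at 1.48, is filled, and Mllt3 has no test in that panel.

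The TSA-headed column against late 2-cell control is TSA treatment by the headers and the late 2-cell to 4-cell step of untreated embryos by the tables. Of the 9 members, 4 were called lower and 0 higher, with a median of -2.40 on the log2 scale beside -0.20 over all tested genes, where 12.3% of all tested genes were called lower and 5.47% higher. The log2 fold change was -4.21 for Mllt3 (SE 0.45, limma adjusted p = 0.000862), -3.88 for Ncoa2 (SE 0.46, adjusted p = 0.000917) and -2.60 for Brdt (SE 0.43, adjusted p = 0.00380). For Ncoa2 the reads were 2238 against 1, a ratio of 2802.2 per read sequenced with a 95% counting interval of 502.4 to 110728.9. It was -2.48 for Kat6a (SE 0.74, adjusted p = 0.0446), and this call was lost without late 2-cell control library A (adjusted p = 0.118) or B (0.150) and without TSA-headed library A (-1.62, 0.279). With each library centred on its median, which raised all differences of this pair by 0.74, Ncoa2 and Mllt3 were still called and Brdt (-1.86, adjusted p = 0.0634) and Kat6a were not. Hat1 (2.42, SE 0.87, adjusted p = 0.0884) and Brd7 (-2.40, SE 0.95, adjusted p = 0.116) missed the threshold, each without overlap of the libraries. Kat8 (0.36, SE 0.95) and Ncoa3 (-0.59, SE 0.41) were within less than 1 on the log2 scale.

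The Sirt1-headed column against late 2-cell control is Sirt1 knockdown by the headers, and the tables give this pair no comparison. It called 3 of 9 members lower, beside 9.43% of all tested genes. They were again Ncoa2 (-3.61, SE 0.46, limma adjusted p = 0.00228), Mllt3 (-3.46, SE 0.45, adjusted p = 0.00308) and Brdt (-2.87, SE 0.43, adjusted p = 0.00383). Kat6a (-2.48) had an adjusted p of 0.0528, and Brd3, 3.06 times its control level, had a log2 fold change of 1.56 (SE 0.55, adjusted p = 0.0949). The 4-cell-con-headed column against late 2-cell control, the untreated stage step by the headers, also called 3 of 9 lower, beside 6.95%. By the tables this pair sets 4-cell FK866 with NMN against late 2-cell control. They were Mllt3 (-3.73, SE 0.45, limma adjusted p = 0.00348), Ncoa2 (-3.59, SE 0.46, adjusted p = 0.00326) and Brdt (-2.54, SE 0.43, adjusted p = 0.00897). The call of Brdt was lost without 4-cell-con-headed library B (-2.39, adjusted p = 0.0710) and with median centring (-2.11, adjusted p = 0.0694). Kat6a (-1.74, adjusted p = 0.172), Brd3 (1.32, adjusted p = 0.167) and Hat1 (1.27, adjusted p = 0.406) had levels apart from control without passing. These 3 comparisons share the late 2-cell control libraries.

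Between the low columns themselves, where the tables place FK866 and NMN at the 4-cell stage, no member was called. The Sirt1-headed against the TSA-headed column, 4-cell FK866 over control by the tables, called 0 of 9 members and 0.0718% of all tested genes, with 547 of 8355 genes at an unadjusted p under 0.05 and 0 members among them. The largest difference was Hat1, at 12.8 and 16.3 against 61.4 and 53.0 FPKM (log2 fold change -1.91, SE 0.87, limma adjusted p = 0.763), without overlap. The 4-cell-con-headed against the Sirt1-headed column, FK866 with NMN over FK866 by the tables, called 0 of 9 members and 0.0239% of all genes, with 274 of 8361 genes and 0 members at an unadjusted p under 0.05. The largest difference was again Hat1, at 19.1 and 33.1 against 12.8 and 16.3 FPKM (0.76, SE 0.87). Ncoa2 and Mllt3 were under 2 FPKM in all 6 libraries of these columns.

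The 4-cell-FK866-headed library against the 4-cell-con-headed column, 4-cell FK866 over control by the headers, had 3 of 9 members called higher and 1 lower, with a median of 0.52 beside 0.13 over all tested genes, where 14.9% of all tested genes were called higher and 10.6% lower. Mllt3 rose by 4.94 (SE 0.55, limma adjusted p = 0.000955), Ncoa2 by 4.16 (SE 0.57, adjusted p = 0.00146) and Brdt by 3.28 (SE 0.53, adjusted p = 0.00312). Hat1 fell from 19.1 and 33.1 FPKM to 0 reads (adjusted p = 0.0128), and was at least 115.1-fold lower by the limit that 3 reads set. This call was lost without 4-cell-con-headed library B (adjusted p = 0.0641). Kat6a, at 28.6 against 4.01 and 3.95 FPKM, was 2.57 higher (SE 0.91, adjusted p = 0.0631), while Brd3 differed by -1.80 (SE 0.68, adjusted p = 0.0783). The 4-cell-FK866 column holds 1 library, which the fit assumes to vary like the other groups. The 115.1-fold limit of Hat1 covers counting error only. By the tables this pair sets late 2-cell TSA against 4-cell FK866 with NMN, so that stage and treatment both differ. The 4-cell-FK866-NMN-headed against the 4-cell-FK866-headed library, NMN over FK866 by the headers, called 0 of 9 members and 3.46% of all tested genes, with 1 library on each side and 0 members at an unadjusted p under 0.05. With median centring the calls over all genes in this pair went from 290 to 0. Of the 28 complex subunits 3 were called between these single libraries before centring, Dr1 (118.3 against 12.5 FPKM), Taf5l (40.8 against 5.08) and Ing4 (0.0544 against 8.23).

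By the tables the last 2 columns are late 2-cell embryos. The 4-cell-FK866-headed library against late 2-cell control, TSA treatment by the tables, called 0 of 9 members beside 6.5% of all genes, with 1 member, Hat1, at an unadjusted p under 0.05. Hat1 was at 0 reads against 16.7 and 5.66 FPKM and was not called. For counting error only it was at least 55.8-fold lower, and 1 library shows no spread between libraries. In the late 2-cell FK866 with NMN column, Hat1 stood at 7.45 FPKM in library A and 0 in library B. Against late 2-cell control, Mllt3 was 1.21 higher (SE 0.55), Kat6a 0.83 higher (SE 0.91) and Brdt 0.74 higher (SE 0.53) on the log2 scale. Brd7 (-1.01, SE 1.16) and Kat8 (-0.97, SE 1.17) were lower. None of these was called. The 4-cell-FK866-NMN-headed library against late 2-cell control, Sirt1 knockdown by the tables, called 0 of 9 members and 0.227% of all tested genes, with 749 genes and 0 members at an unadjusted p under 0.05. Hat1 (-1.76, SE 1.07, adjusted p = 0.788) and Ncoa2 (0.72, SE 0.57, adjusted p = 0.860) had the largest differences. A member was called with all libraries in only part of the 13 column pairs, and under the tables each such pair sets different stages against each other. The Sirt1-headed and 4-cell-con-headed columns over late 2-cell control also differ in treatment under the tables. So does the 4-cell-FK866-headed over the 4-cell-con-headed column. In these pairs stage and treatment cannot be told apart. Under the headers, members were also called within a stage, for TSA and Sirt1 at the late 2-cell and FK866 at the 4-cell stage.

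**Figure D3:**
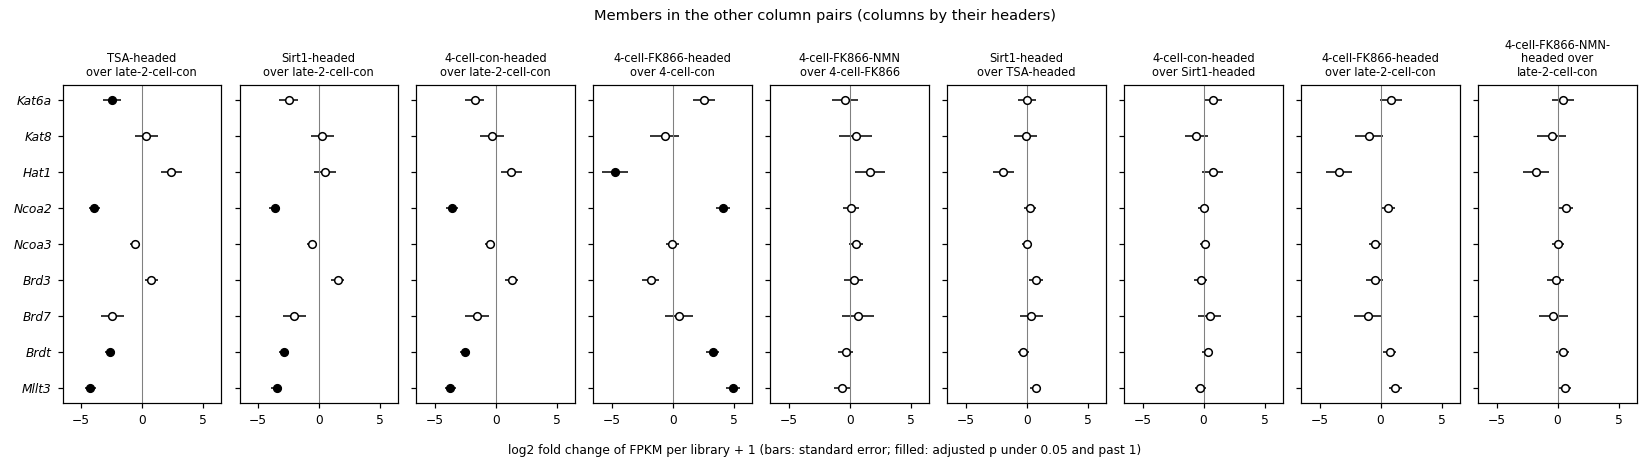
Log2 fold changes of FPKM per library + 1 of the 9 tested members in the column pairs that headers and tables name differently, with the columns by their headers. Points, bars and filling are as in the plot of the other pairs. Ncoa2, Mllt3 and Brdt are filled on the left in the first 3 panels and on the right in the panel of the 4-cell-FK866-headed over the 4-cell-con column, where Hat1 is filled on the left.

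The FK866 difference was also compared between the stages. By the headers it was larger at the 4-cell than at the late 2-cell stage for 3 of 9 members, Mllt3 by 4.60 on the log2 scale (SE 0.71, limma adjusted p = 0.00845), Ncoa2 by 3.45 (SE 0.73, adjusted p = 0.0219) and Brdt by 3.19 (SE 0.69, adjusted p = 0.0227), where 5.63% of all tested genes were called in that direction. Under the reading of the tables, 0 members and 0.0479% of genes were called. For the NMN difference, tested only with library A of the late 2-cell FK866 with NMN column included, 0 members were called under the headers (3.55% of genes) and likewise 0 under the other reading (0.324%).

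Genes around the members were called in part of these pairs. In the TSA-headed column against late 2-cell control, 3 of 10 writers were lower, Ncoa2, Kat6a and Clock (1.54 against 8.77 FPKM), and of 28 complex subunits 2 were lower and 1 higher, beside 12.3% of all tested genes lower and 5.47% higher. The lower were Tada3, a subunit shared by SAGA and ATAC (1.77 against 13.5), and Ep400 of the Tip60 complex (4.43 against 16.9), and the higher was Ing4 (3.27 against 0.0965). Tada3 was also lower in the Sirt1-headed (0.731) and 4-cell-con-headed (0.865) columns, and Ep400 in the Sirt1-headed (5.13). The list of Mllt3 partners had 8 tested genes, with Mllt3 among them, and Mllt3 was lower in all 3 columns. Besides Mllt3, Mllt10, the Dot1l cofactor, was lower in the Sirt1-headed (20.8 against 65.3 FPKM) and 4-cell-con-headed (19.6) columns. Aff3 of the super elongation complex was lower in the 4-cell-con-headed column (0.480 against 8.70). None of the 17 genes of acetyl-CoA supply was called in the 3 pairs, and the medians of the 5 lists lay between -1.14 and 0.46.

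In the 4-cell-FK866-headed library against the 4-cell-con-headed column, 4 of 10 writers were called, where 14.9% of all tested genes were called higher and 10.6% lower. Besides Ncoa2 and Hat1 they were Atf2 (91.0 against 22.2 FPKM), higher, and Nat10 (2.52 against 13.7), lower. Of 28 complex subunits 5 were lower and 1 higher. Taf5l (5.08 against 58.5), Kansl3 of the NSL complex of Kat8 (2.34 against 28.2), Wdr5 (12.6 against 86.3) and Dmap1 (0 against 9.50) were among the lower, and Tada3 (10.1 against 0.865) was the higher. The readers Yeats4 (182.3 against 33.1) and Cecr2 (2.20 against 30.1) were called in opposite directions. In acetyl-CoA supply Pdp1 (21.5 against 0.478) was higher, and Pdp2 (2.10 against 39.3), Ppcs (4.92 against 46.2) and Pank3 (16.8 against 103.3) were lower. Against late 2-cell control the same library was lower in Dr1 (12.5 against 186.9), Taf5l (5.08 against 32.1) and Pdp2 (2.10 against 21.1) and higher in Ing4 (8.23 against 0.0965). Over the 5 lists, 0 genes were called between the Sirt1-headed and TSA-headed columns, between the 4-cell-con-headed and Sirt1-headed columns, or between the 4-cell-FK866-NMN-headed column and late 2-cell control.

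For each member whose level spanned at least 2 on the log2 scale over the 9 columns, the 3 genes most like it were taken from 4792 genes with a mean of at least 5 FPKM, by Pearson's r over the 9 columns. The columns hold the same libraries for every gene, so r describes these columns only. Since the genes were picked by r, their highest and lowest columns follow from the choice and are given as description. Nearest to Ncoa2 were Fbxo8 (r = 0.996), E2f4 (0.995) and Prmt2 (0.990), to Mllt3 Pnrc1 (0.994), Gm44527 (0.993) and Surf4 (0.992), and to Brdt Zfp560 (0.989), Cox6b2 (0.988) and Ctnnal1 (0.985). Each of these 9 genes had its lowest column among the TSA-headed and Sirt1-headed columns. Nearest to Kat6a were Gm13465 (0.986), Odf2 (0.986) and Slain2 (0.981), and to Brd7 Slc30a1 (0.960), Gm5157 (0.959) and Rnf114 (0.954). Nearest to Hat1 were Gpat3 (0.967), Hnrnpa2b1 (0.965) and Dnajc2 (0.959), all highest in the TSA-headed and lowest in the 4-cell-FK866-headed column. Nearest to Kat8 were Edc4 (0.973), Ints12 (0.936) and Trit1 (0.926), highest in the early 2-cell column, and to Brd3 Gm15501 (0.972), Cox5a (0.954) and Gm4353 (0.945). The names beginning with Gm are gene models, some of which share reads with near-identical copies, and their levels are uncertain.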

How the data were processed

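The RNA-seq table deposited by the authors is headed as counts, but its values are FPKM, 1 column per group, summed over the group's libraries. The authors pooled 3 embryos per library and used Trim Galore for trimming, HISAT2 for alignment (mm10), featureCounts for counting and DESeq2 for their tests. Each value times the exon length (GENCODE M21) was separated into whole reads of 1 or 2 libraries for 97.8% to 99.6% of values above 0, and 3169677 to 10003481 reads per library were found. The planned unit was thus replaced by FPKM per separated library. One limma fit (3.58.1, R 4.3.3, Python 3.11.15) on log2(FPKM + 1) took 16 libraries in 9 groups with 7 residual degrees of freedom, for genes with a mean of at least 1 FPKM, with Benjamini-Hochberg adjustment over all tested genes. Tests were checked on simulated data. Intervals and limits from 0 reads (3 reads) cover counting error only. All 10 members were named, up to 5 called genes per list with the largest change, and the 3 genes most like each member that spanned 2 on the log2 scale. The members and lists were chosen with earlier results of these data known. Of the samples, 24 from H3K27ac CUT&Tag were left out, since these genes were read in the RNA-seq table. Results were recomputed under 21 other settings, covering the pseudocount, the minimum level, median centring and each library left out. The result of 1 listed gene is not reported here.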

Additional observations from a re-analysis of the deposited data

Results flagged for a closer look

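With the columns named by their headers, the FK866 difference was larger at the 4-cell than at the late 2-cell stage for 3 members, by the limma test of the difference itself. The gap was 4.60 on the log2 scale for Mllt3 (adjusted p = 0.00845), 3.45 for Ncoa2 (adjusted p = 0.0219) and 3.19 for Brdt (adjusted p = 0.0227). The 4-cell-FK866-headed column shows 1 library. With the columns named by the study's supplementary tables the same differences were 0.41, -0.45 and -0.35, and 0 of the 9 members were called. Why headers and tables name different columns was not tested.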

How the results depend on the processing

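The counts of members called moved as follows. For the 4-cell-con-headed column over late 2-cell control, 3 became 2 with median centring. In the 4-cell-FK866-headed over the 4-cell-con-headed pair, Kat6a and Brd3 were also called with a pseudocount of 5. Kat6a was also called there with a minimum mean of 5 FPKM, and Hat1 was lost without 4-cell-con-headed library B. From early to late 2-cell, 1 member became 0 with a pseudocount of 0.1, 0 with median centring, and 0 to 1 with 1 library left out. For FK866 with NMN, 0 members became 0 to 2 with 1 library left out, over FK866 alone and over control. For the TSA-headed column over late 2-cell control, 4 became 2 with median centring and 3 to 4 with 1 library left out. For the Sirt1-headed column, 3 became 5 with a pseudocount of 5, and for the 4-cell-FK866-headed library over late 2-cell control 0 became 1. The Brd7 difference of FK866 with NMN from FK866 alone reversed, from -1.19 to 0.58 without library A, with a range of -2.95 to 0.58. The causes were not tested. No paired analysis was possible because the columns carry no replicate numbers. Of 362 alternatives for 42 member fold changes, 325 kept direction and side of the threshold. Of 673 alternatives for the other 83, which were not called, 51 took the other sign and 0 were called. Leaving out a library was not possible where a column shows 1. Counts over all genes moved more. Over all settings run they were 712 to 1700 from early to late 2-cell (1516 as reported), 0 to 100 for late 2-cell FK866 over control (20), 5 to 1382 for FK866 with NMN over FK866 alone (279) and 197 to 1671 over control (545). They were 120 to 1066 for the 4-cell-con-headed (846), 661 to 1495 for the TSA-headed (1485) and 494 to 1292 for the Sirt1-headed column (1172) over late 2-cell control, and 1011 to 2422 for the 4-cell-FK866-headed library over the 4-cell-con-headed column (2128). They were 0 to 835 for the 4-cell-FK866-NMN-headed over the 4-cell-FK866-headed library (290), and 162 to 1032 and 0 to 182 for these libraries over late 2-cell control (544 and 19). Median centring moved log2 values by 1.13 and 1.19 for FK866 with NMN over FK866 alone and over control, and the share of calls that were higher from 13.3% to 80.0% and from 18.3% to 78.2%. It moved them by 0.43, 0.74 and 0.49 for the 4-cell-con-headed, TSA-headed and Sirt1-headed columns over late 2-cell control, with shares from 31.3% to 47.8%, 30.8% to 59.3% and 32.7% to 53.0%, and by -0.64 for the 4-cell-FK866-headed over the 4-cell-con-headed column, from 58.5% to 33.5%. Ncoa2 and Mllt3 kept their calls and directions in these last 4 pairs under every setting run.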
